A study of Mus musculus with 2 samples.

Results

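The probes described here are the 3487 oligonucleotides of a two-colour Agilent microarray whose identifiers carry the token MIRNA followed directly by a number, as in ASMM10SM20MIRNA100007211TV2. They were chosen by identifier alone, among the non-control spots present on both arrays, and make up 3487 of 14552 non-control probes. The other small-RNA probes carry the tokens TRF (3633 probes), TRFSS (3213), MIRNASS (2945) and PST (1122). The sources used here do not explain the tokens, and they pair a probe number with no RNA name and no sequence, so each probe is named by its number and none is called by a microRNA. Whether probes with neighbouring numbers share a target or a sequence was not tested.

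The study used the BV-2 line of immortalised mouse microglia. The control array held RNA of cells labelled only as BV-2 cells, and the other array held RNA of cells after oxygen and glucose deprivation followed by reperfusion (OGD/R), a culture model of stroke. For OGD/R the medium was replaced by DMEM without glucose and serum, the cells spent 2 h at 37 °C under 5% CO2 and 95% N2, and they were then returned to normal oxygen and regular medium, for a time that the labels leave unstated. On each array, RNA eluted from an immunoprecipitation of modified RNA (IP) was labelled with Cy5, and the RNA left in the supernatant (Sup) with Cy3, and the sources used here name neither the modification nor the antibody. With 1 array per group, a difference between the groups has no replicate check and no p-value is given, and every difference below is OGD/R minus control for these 2 arrays.

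MicroRNAs are short non-coding RNAs cut from hairpin precursors and loaded into Argonaute proteins, where a few bases near their 5′ end, the seed, select target mRNAs for reduced translation and decay. In microglia some microRNAs raise and others restrain the inflammatory response to injury. RNA bases can carry chemical marks, and an antibody against a mark separates marked molecules (IP) from the rest (Sup), so that the balance of the channels at a probe reports how its RNA was divided between them.

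Of the 3487 MIRNA probes, each printed as 1 spot, 8 had a spot marked as an outlier by the scanner software on either array and were left out, and 0 were saturated. Of the remaining 3479, Sup was well above background for 2112 (60.7%) in control and 2096 (60.2%) in OGD/R, by the scanner's own flag. IP was well above background for 1757 (50.5%) in control and 1744 (50.1%) in OGD/R. Both channels passed on both arrays for 1574 probes (45.2%), called measured below, against 34.0% of all RNA probes and 30.3% of the other small-RNA probes. The same share was 39.7% for TRF, 31.1% for TRFSS, 23.1% for MIRNASS and 16.2% for PST, so MIRNA probes were measured more often than those of each other token on these arrays. Sup alone passed on both arrays for 306 MIRNA probes and IP alone for 58, while 1181 passed in no channel on either array. The median signal of the negative control spots was 28.8 (Sup) and 31.7 (IP) for control, with 27.5 and 31.0 after OGD/R.

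The numbers of the MIRNA probes ran from 100000000 to 100009738 and came in short runs of consecutive numbers. There were 966 runs, of which 597 held 4 probes and 361 held 3, and 3471 probes lay in a run of either length. The longest run held 6 probes, 100003143 to 100003148. Runs of 4 set the MIRNA probes apart in the layout of the identifiers, since 978 of 984 MIRNASS runs, 1166 of 1224 TRF runs and 1028 of 1092 TRFSS runs held 3. Detection followed the runs as well: every member was measured in 351 runs, some in 166, and none in 449. Runs with at least 3 measured members numbered 392 and held 1396 of the 1574 measured probes.

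Neighbours in number gave similar signals, and the likeness ended where the runs ended. Over 1007 pairs of measured probes whose numbers differed by 1, all within a run, the Spearman correlation of the IP share (IP signal as a percentage of IP plus Sup) came to 0.74 in control and 0.75 in OGD/R. It was 0.73 on both arrays at a gap of 2 (659 pairs, 633 within a run) and 0.60 and 0.58 at a gap of 3 (309 pairs, 249 within a run). At a gap of 4, where none of 100 pairs lay within a run, it was -0.03 and -0.05, and at a gap of 5 (124 pairs, again 0 within a run) it was -0.13 and -0.11. At gaps of 10, 50, 100 and 500 it lay between -0.05 and 0.11. The typical distance in share between neighbours was 5.21 percentage points at a gap of 1 and 13.8 at a gap of 4. These correlations are descriptions over probes that share an array and a hybridisation.

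The sum of both channels, called total signal below, followed the same pattern, with a correlation in control of 0.81 at a gap of 1 and -0.09 at a gap of 4. Spots with neighbouring numbers were not printed side by side: the median distance between them was 60 rows or columns, and 7 of the 1007 pairs lay within 5 rows and 5 columns. The other tokens had the feature too, with correlations of the control share at a gap of 1 of 0.83 for MIRNASS (380 pairs), 0.84 for TRF (796) and 0.70 for TRFSS (517). The SD of the control share was 8.56 percentage points among probes of a run and 18.1 over all measured probes in runs with at least 3 measured members.

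Place in a run was described by counts, without a test. In the 219 runs of 4 with all members measured, the brightest probe in control was the first in 42 runs, the second in 53, the third in 64 and the last in 60. The lowest control share was at the first in 48, the second in 41, the third in 56 and the last in 74, so in control it fell most often on the last place. The median deviation from the run's median share was -0.19 percentage points at the last place in control and -0.10 in OGD/R. At the second place it was 0.19 in control and -0.31 in OGD/R, so the order of places differed between the arrays. The median control share by place was 45.9%, 47.5%, 47.9% and 47.5%. In the 132 runs of 3 with all members measured, the brightest probe in control was the first in 42, the second in 37 and the last in 53. In OGD/R these counts were 42, 34 and 56. The lowest control share in the runs of 3 was more even, at the first in 41, the second in 44 and the last in 47.

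MIRNA probes divided about evenly between the channels, with a wide spread. The median IP share of the 1574 measured probes was 48.3% in control (quartiles 36.0% and 61.2%, range 5.17% to 97.0%) and 49.2% in OGD/R (quartiles 34.7% and 62.6%, range 5.82% to 97.2%). The 95% order-statistic intervals of these medians over probes were 47.5% to 49.6% and 47.9% to 50.4%. Such intervals treat probes as independent, which members of a run were not, so they are too narrow. They do not cover variation between arrays. Dye normalization by the scanner software sets the balance of the channels, so the share orders probes within an array and is no count of molecules: before that step the median was 33.3% in control and 34.0% in OGD/R. IP exceeded Sup at 739 probes in control and 762 in OGD/R. The order of the probes was nearly the same on both arrays, with a Pearson correlation of 0.95 and a Spearman correlation of 0.94 over the 1574 probes, which share their sequences on both. In control the median share was 50.4% for MIRNASS, 45.9% for TRF, 54.3% for TRFSS and 65.3% for PST, so the MIRNA median lay within the range of the other tokens.

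Among measured probes, brighter ones had lower IP shares. With the measured probes cut by total signal into 4 bins of 393 or 394 probes, from the dimmest bin to the brightest the median control share was 54.5%, 49.6%, 44.3% and 42.6%, and in OGD/R it was 57.2%, 49.2%, 44.6% and 43.5%. The Spearman correlation of share with total was -0.25 on each array. Measured probes had to pass the background flag in both channels. The lowest passing signal was higher for IP (log2 7.50 in control, 7.36 in OGD/R) than for Sup (6.82 and 6.74). Among dim probes this filter leaves out low IP shares, and its part in the trend was not tested. A signal also depends on how well a probe binds, so a bright spot is not read as an abundant RNA.

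The highest IP shares belonged to single probes and to a few whole runs. Probe 100008466 had the highest mean share, with 97.0% in control and 97.2% in OGD/R, from log2 signals of 10.96 (Sup) and 15.96 (IP) for control, with 10.72 and 15.86 after OGD/R. It was followed by 100004159 (95.9% and 96.8%), 100006644 (95.8% and 95.7%), 100008052 (95.2% and 94.3%) and 100008468 (94.1% and 93.8%). The other measured members of the run of 100008466 were IP-rich as well, with 84.8% in control at 100008467 and 78.7% at 100008469. Among runs, the 3 probes 100004922 to 100004924 had the highest median share, 92.9% in control and 92.5% in OGD/R, with Sup at 11.44, 10.63 and 11.64 and IP at 15.11, 14.34 and 15.45 in control. The run 100000235 to 100000237 had 90.9% and 92.0%, and the 3 measured probes of 100002605 to 100002608 had 91.9% and 90.1%. The lowest share among the measured members of these runs was 89.3%, at 100002608 in OGD/R.

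At the Sup-rich end, whole runs lay close together. The 4 probes 100006881 to 100006884 had shares of 5.77%, 5.73%, 5.83% and 6.08% in control, then 5.82%, 5.91%, 5.85% and 5.95% in OGD/R. Their Sup signals in control were 18.20, 18.24, 18.21 and 18.28 on the log2 scale, and their IP signals 14.17, 14.20, 14.19 and 14.33. Neither the 4 spots nor the 2 arrays parted by more than a fraction of a percentage point in share. The 3 measured probes of 100007271 to 100007274 had a median of 5.58% in control and 7.81% in OGD/R, and 100007271 was the lowest single value, 5.17% in control against 7.77% in OGD/R. The fourth member, 100007272, was left out for an outlier spot. The run 100005167 to 100005170 had 8.01% and 9.22%. The median difference in the log2 ratio of IP to Sup was 0.58 for 100007271 to 100007274 and 0.36 for 100005167 to 100005170. After normexp background correction and loess these were 0.15 and -0.13, and centred on spike-in probes 0.13 and -0.10.

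The run 100008041 to 100008044 was the brightest and divided nearly evenly between the channels. Its Sup signals were 19.76, 19.88, 19.73 and 19.83 in control, then 19.86, 19.80, 19.52 and 19.85 in OGD/R, and its IP signals 20.04, 20.11, 20.08 and 20.14, then 20.06, 20.01, 19.97 and 20.15. Its median share was 55.1% in control and 54.4% in OGD/R, and its median difference was 0.00 in the ratio and 0.05 in total signal. The next brightest, with 3 measured probes in 100005182 to 100005185, held a median share of 20.03% in control and 29.1% in OGD/R. Each of those 3 shares was higher in OGD/R, by 0.59 to 0.74 in the log2 ratio. Their median ratio difference was 0.66, and 0.11 after normexp background correction and loess.

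Between the groups, total signal differed little for most MIRNA probes. The total was scaled on each array to the 75th percentile over those RNA probes for which a channel passed the background flag on both arrays. The median difference over the 1574 measured probes was -0.06 on the log2 scale (95% interval over probes -0.08 to -0.05, quartiles -0.24 and 0.14), against -0.03 over all RNA probes. It was 0.38 when the arrays were scaled on spike-in probes, so a common shift of the MIRNA probes has no settled direction. The interval treats probes as independent, although members of a run were alike, and does not cover variation between arrays. In OGD/R, 9 probes were at least 2-fold higher, a threshold passed by 0.733% of all measured RNA probes. At least 2-fold lower were 15, beside 0.774% of all measured RNA probes. As shares of the MIRNA probes these counts are 0.572% and 0.953%, near that background. The median scanner error of a total difference was 0.16, which covers technical error of the spots only. In bulk RNA, fewer cells holding an RNA and less of it per cell cannot be told apart.

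The probes at the extremes of total signal lay mostly in the same runs. The 8 higher probes in runs with at least 3 measured members came from 3 runs, and for 7 of them the median of the other members was also at least 2-fold higher. The 15 lower probes came from 9 runs, so some of them count among each other's neighbours too. For 8 of the 15 the median of the other members was at least 2-fold lower. Of 392 runs, the median total was at least 2-fold higher in 2 (0.51%, beside 0.603% of the runs of all tokens) and at least 2-fold lower in 3 (0.765%, beside 0.517%). At 1.5-fold there were 12 higher (3.06%, beside 5%) and 17 lower (4.34%, beside 3.19%). The total difference of all measured members had a single sign in 222 of 392 runs (56.6%), positive in 71 and negative in 151 under this scaling. Over the runs of all tokens, MIRNA included, the percentage was 62.5%. Of the 602 runs of 4 probes of all tokens, 597 were MIRNA runs. A single sign is less easily reached by 4 members than by 3, so these percentages do not set like runs side by side.

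The run 100003427 to 100003429 had the largest positive difference in total signal. Sup was 12.40, 12.36 and 12.53 in control, then 13.96, 14.00 and 14.14 in OGD/R, and IP was 12.53, 12.60 and 12.77 in control, then 13.37, 13.52 and 13.69 in OGD/R. Both channels were thus brighter in OGD/R at each of the 3 spots, Sup more than IP. The total was 2.58-fold higher at the median (log2 difference 1.37, members 1.32 to 1.38). After scaling, Sup differed by 1.68 and IP by 1.06, and the IP share was 54.1% in control and 41.9% in OGD/R.

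In the run 100007211 to 100007214 the difference lay mainly in Sup. Sup was 14.69, 14.74, 15.74 and 14.58 in control, then 15.86, 16.03, 16.93 and 15.78 in OGD/R. IP was 13.53, 13.63, 14.52 and 13.40 in control, then 13.71, 13.86, 14.61 and 13.63 in OGD/R. The total differed by 1.04 (members 1.02 to 1.12), and the share was 30.8% in control and 18.3% in OGD/R, a ratio difference of -0.998 (members -1.07 to -0.94). With normexp background correction these were 1.13 and -1.08. Another run, 100003817 to 100003820, had a median total difference of 0.78 with members from 0.53 to 1.03, and its share was 18.4% in control and 17.2% in OGD/R. That median was 0.41 with normexp correction and 1.22 scaled on spike-in probes.

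Of the runs with lower total signal, 100007721 to 100007723 was opposite to 100007211 to 100007214 in both measures. Sup was 15.40, 16.35 and 16.00 in control, then 14.08, 14.68 and 14.47 in OGD/R, and IP was 14.77, 15.39 and 14.91, then 14.11, 14.63 and 14.33. The total differed by -1.07 (members -1.21 to -0.94), with Sup at -1.47 and IP at -0.52 after scaling. The share was 34.0% in control and 49.2% in OGD/R, a ratio difference of 0.93, which was 0.49 with normexp correction.

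The runs 100007811 to 100007814 and 100009520 to 100009523 had lower total signal with a smaller median difference in balance under the processing used here. In the former, IP was 15.52, 13.57, 14.25 and 17.23 in control, then 13.83, 12.58, 13.05 and 15.93 in OGD/R, while Sup was 12.92, 11.61, 12.33 and 15.06, then 12.26, 10.91, 11.36 and 14.35. All 4 spots were IP-rich and dimmer in OGD/R, by a median of -1.07 in total (members -1.40 to -0.84), with a share of 80.6% in control and 75.5% in OGD/R. The median ratio difference of these spots was -0.42, with members from -1.02, at 100007811, to -0.22. It was -0.62 with normexp correction and -0.87 centred on spike-in probes. In the latter the total differed by -1.04 (members -1.07 to -0.995) and the share was 38.3% and 42.6%. The median total difference of 100009520 to 100009523 was -0.77 with normexp correction, and that of 100007811 to 100007814 was -0.99. Scaled on spike-in probes, the medians of 100007721 to 100007723, 100007811 to 100007814 and 100009520 to 100009523 were -0.64, -0.64 and -0.60, so none of the 3 reached 2-fold there.

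Probe 100005291 had the largest single difference, and its run did not share it. Sup went from 13.85 (control) to 9.17 (OGD/R) and IP from 12.33 to 8.40, a total difference of -4.36 that was -2.64 with normexp correction and -2.53 when loess was added. Its measured neighbours differed far less: 100005292 by -0.02, with Sup at 8.46 and 8.41, and 100005293 by -0.82, with Sup at 9.43 and 8.03. Its control total was 4.55 above the median of its neighbours, and its OGD/R total 0.61 above it. The probe has 1 spot on each array, so whether that spot stands for its RNA was not tested. Probe 100005278 also differed more than its neighbours, with -1.17 against -0.31 to -0.06. Unlike 100005291, it did not stand above all of them in control, with a log2 total of 13.69 against 12.78, 13.12 and 13.84. In OGD/R it was dimmer than each of them, with 12.43 against 12.64, 12.72 and 13.57. Its difference was -0.72 with normexp correction and -0.73 scaled on spike-in probes, under 2-fold in each. Summed from the authors' deposited table, where IP has less weight in the total, it was -0.76. Probe 100001817, at -1.26, had neighbours from -0.93 to -0.71, and its difference was -0.22 with normexp correction and -0.83 scaled on spike-in probes.

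The IP/Sup balance also differed little for most MIRNA probes. The log2 ratio of IP to Sup, centred on each array on the median over RNA probes, differed by a median of 0.05 (95% interval over probes 0.03 to 0.08, quartiles -0.20 and 0.29), the same 0.05 as over all RNA probes. It was -0.41 when the arrays were centred on spike-in probes, so a common shift of the ratio has no settled direction either. The interval again treats probes as independent and does not cover variation between arrays. The SD over probes was 0.40, and the median scanner error of a difference was 0.35. At least 2-fold higher were 14 of 1574 probes (0.889%), beside 1.34% of all measured RNA probes. At least 2-fold lower were 21 (1.33%), beside 0.917%. Dim spots varied more: the SD of the difference was 0.47 in the dimmest bin and 0.34 in the brightest, and 25 of the 35 probes past 2-fold lay in the 2 dimmer bins. With normexp correction, run before dye normalization and with an offset of 50, the counts were 1 higher and 5 lower. An added offset damps ratios of dim spots, but its part in these counts was not tested.

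Higher ratios at single probes were mostly not shared by the run. The 5 largest were 100008379 (1.31, scanner error 0.33), 100006124 (1.18, 0.47), 100002810 (1.17, 0.49), 100003003 (1.15, 0.36) and 100006703 (1.14, 0.33). Probe 100008379 had a share of 49.5% in control and 70.5% in OGD/R, while its 3 neighbours differed by 0.06 to 0.28 in the ratio. The neighbours of 100006703 lay between -0.11 and 0.02, and those of 100003003 between -0.95 and 0.26. There were 13 probes with a higher ratio in runs with at least 3 measured members, from 12 runs. Of them, 11 had neighbours with a median above 0, but for 1 it reached 1.5-fold and for 0 it reached 2-fold. With normexp correction the 5 largest were 0.15 to 0.43.

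Lower ratios at single probes came with lower ratios in the run more often in these counts, a difference that was not tested. Of 17 such probes, 16 had neighbours with a median below 0 and 12 had one of at least 1.5-fold. These 17 came from 13 runs, so some of them count among each other's neighbours. The 5 lowest were 100000388 (-1.91, scanner error 0.49), 100001273 (-1.62, 0.53), 100006111 (-1.55, 0.44), 100000386 (-1.39) and 100004623 (-1.35, 0.32). The neighbours of 100004623 lay between -1.01 and -0.87, so all 4 probes of its run differed alike. Probe 100006111 had 1 measured neighbour, at 0.11. With normexp correction the 5 were -0.57 to -0.36.

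Of 392 runs, 0 had a median ratio at least 2-fold higher, beside 0.345% of the runs of all tokens, and 1 had one at least 2-fold lower (0.255%, beside 0.172%). At 1.5-fold there were 13 higher (3.32%, beside 4.05%) and 14 lower (3.57%, beside 3.1%). The run 100000385 to 100000388, with 3 measured probes, passed 2-fold. Sup was 7.67, 7.53 and 6.96 in control, then 7.99, 7.55 and 7.80 in OGD/R, and IP was 10.72, 9.89 and 10.21, then 9.63, 9.35 and 9.11. IP was dimmer at each of the 3 spots and Sup was near its detection limit, and the share was 89.2% in control and 75.7% in OGD/R, a median ratio difference of -1.39 that was -0.36 with normexp correction.

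The run 100000070 to 100000073 had a lower ratio at each of its 4 probes. Sup was 8.33, 8.63, 9.11 and 8.17 in control, then 9.11, 9.26, 9.55 and 9.26 in OGD/R. IP was 8.24, 8.40, 8.66 and 8.44 in control, then 7.86, 7.94, 8.33 and 8.59 in OGD/R. Sup was thus brighter at all 4 spots and IP dimmer at 3 of them, with a median ratio difference of -0.99 (members -1.15 to -0.74) and -0.26 with normexp correction. The next run, 100000075 to 100000078, chosen after its values were seen, had ratio differences of -0.90, -0.66, -0.87 and -0.97.

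The runs with the largest positive ratio differences had lower total signal in OGD/R. Beside 100007721 to 100007723, the run 100009256 to 100009258 had a median of 0.90 (members 0.75 to 1.04), with a share of 41.8% in control and 54.3% in OGD/R and a total difference of -0.61. The run 100006601 to 100006604 had 0.82 (members 0.52 to 1.11), a share of 32.2% and 46.8% and a total difference of -0.86. In all 3 runs the scaled Sup difference was further below 0 than that of IP, with medians of -1.47 and -0.52, -1.17 and -0.07, and -1.20 and -0.29. Their ratio medians were 0.49, 0.48 and 0.44 with normexp correction and 0.48, 0.44 and 0.37 centred on spike-in probes. The total difference of 100009256 to 100009258 was -0.33 with normexp correction and -0.18 scaled on spike-in probes, and that of 100006601 to 100006604 was -0.43 under the latter.

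Differences between the groups followed the runs as the levels did, more closely in total signal than in ratio. At a gap of 1 the Spearman correlation of the total difference was 0.59 and that of the ratio difference 0.42, while at a gap of 4 they were 0.13 and 0.01 and at a gap of 5 they were 0.08 and 0.20. At gaps of 10, 50, 100 and 500 the total difference lay between -0.09 and 0.04 and the ratio difference between -0.11 and 0.03. Among the brighter pairs (504) they were 0.75 and 0.52, and among the dimmer (503) 0.45 and 0.34. The SD among probes of a run was 0.20 for the total difference and 0.29 for the ratio difference, against 0.35 and 0.40 over all measured probes in such runs. The ratio difference of all measured members had a single sign in 181 of 392 runs (46.2%), positive in 108 and negative in 73 under this centring. It was 49.4% over the runs of all tokens, MIRNA included, whose other runs mostly had fewer members, so the percentages do not set like runs side by side.

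Few probes were detected on 1 array only. Sup was well above background in OGD/R only for 102 MIRNA probes (2.93%, beside 3.48% of all RNA probes) and in control only for 118 (3.39%, beside 3.34%). IP was so in OGD/R only for 74 (2.13%, beside 2.9%) and in control only for 87 (2.50%, beside 3.01%). A lower bound of the fold was set as the bright signal over the higher of the dim probe's own signal and the lowest signal well above background on that array. It reached 2-fold for 4, 1, 2 and 4 probes of these 4 sets. Sup of 100004383 was higher in OGD/R by at least 2.96-fold, while IP of 100002776 was at least 2.92-fold lower in OGD/R than in control. The other probes past 2-fold in Sup were 100006019 (at least 2.45-fold higher), 100003168 (2.34), 100009491 (2.02) and 100005468 (at least 2.29-fold lower). In IP they were 100000673 (at least 2.21-fold higher), 100003374 (2.14), 100002867 (at least 2.52-fold lower), 100009161 (2.38) and 100008033 (2.10). These bounds depend on the scaling. Without it, those of 100009491, 100000673 and 100003374 fall short of 2-fold, and that of 100000381, lower in IP in OGD/R, passes it.

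Along the numbering, the share of measured probes was uneven. In stretches of 1000 numbers from 100000000 upward it was 25.1%, 34.4%, 22.8%, 38.3%, 24.9%, 41.8%, 73.1%, 83.7%, 53.6% and 54.2%. Numbers from 100006000 to 100007999 were thus measured most often, with 266 and 302 probes. The IP share had no such trend: the median control share lay between 43.9% and 53.0% in the 10 stretches. The median ratio difference lay between -0.08 and 0.16. Of the 9 probes with at least 2-fold higher total signal, 4 lay in the stretch from 100003000, 1 in that from 100005000 and 4 in that from 100007000, and runs 100003427 to 100003429 and 100007211 to 100007214 gave 7 of them.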

How the data were processed

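The data were 2 two-colour arrays. The deposited intensities of each spot and channel had been background-subtracted and dye-normalized by Agilent Feature Extraction 11.0.1.1 (protocol GE2_1100_Jul11), per the file headers. The log10 ratio error in the deposited scanner files gave the scanner error of a ratio. The error of each channel's processed signal, weighted by its share, gave that of a total. The authors' deposited table of log2 values held 1738 MIRNA probes, including all 1574 measured ones, and differs from log2 of the processed signal by 1 constant in each column. In control the table was lower by 11.92 for Sup and 14.20 for IP, and in OGD/R by 11.54 and 13.76. A total summed from that table, with no further scaling, gives IP less weight than the total used here. It is therefore a different measure.

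The log2 of Cy5 (IP) over Cy3 (Sup) was centred on the median over the 7470 RNA probes for which a channel passed the background flag on both arrays, and total and single-channel signals were scaled to a 75th percentile. Log2 signals printed per spot are before scaling. Before scaling, the total of all RNA probes differed by a median of -0.12. Calls used a threshold of 2-fold. The scripts were checked on simulated data. The number of arrays limits the precision, and the gene probes with 10 repeat spots had a median SD over spots of 0.08 in control and 0.07 in OGD/R for the log2 ratio.

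The probes, lists and rules were chosen with earlier results of these data known. The probes named were the 5 largest differences in each direction of the ratio and the total, the 5 highest and 5 lowest shares, the 5 brightest, and up to 5 per direction detected on 1 array only. Runs were named by the 3 most extreme medians. That rule asked for more measured members than any run held, so after the files were seen it was taken at 3, and the runs with the 3 highest and 3 lowest median total differences were added. The rule also took the 5 longest runs, which are the run of 6 and, by number order among ties, the first 4 runs of 4 probes. Alternatives were normexp with an offset of 50, loess, other centring and scaling, other filters and thresholds, and the authors' table. Normexp, with or without loess, was run on the median spot signals before dye normalization. Tools were R 4.3.3, limma 3.58.1, Python 3.11.15, numpy 2.4.6, pandas 2.3.3 and scipy 1.17.1.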

Additional observations from a re-analysis of the deposited data

How the results depend on the processing

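No paired analysis was possible because each group has 1 array, and no replicate could be left out. No result changed sign while past its threshold. The cause of each movement below was not tested. MIRNA probes with at least 2-fold higher and lower ratio numbered 14 and 21, and were 1 and 5 with normexp, 1 and 7 when loess was added, 0 and 117 centred on spike-in probes, 63 and 110 with at least 1 channel above background, 220 and 260 with no filter, 115 and 99 at 1.5-fold, and 0 and 2 at 3-fold. The median ratio difference of 0.05 was -0.0089 with normexp and loess, -0.41 on spike-in probes, -0.021 centred on MIRNA probes and -0.0002 in the authors' deposited table. Probes with at least 2-fold higher and lower total numbered 9 and 15. The lower count was 5 with normexp, with or without loess. Both counts were 64 and 1 on spike-in probes, 4 and 23 without scaling, and 65 and 63 with no filter. They were 62 and 78 at 1.5-fold, and 0 and 1 at 3-fold. The higher count was 16 with at least 1 channel above background. The median total difference of -0.06 was 0.0007 after normexp, -0.0034 when loess was added and -0.088 under median scaling. It was 0.38 on spike-in probes, -0.14 without scaling, -0.0375 with at least 1 channel above background and -0.0053 with no filter. Totals summed from the authors' deposited table give IP less weight and are a different measure. With them the counts were 49 and 5 and the median difference was 0.23.

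For run medians, settings were added after seeing the data. Runs at least 2-fold lower in ratio numbered 1, and were 3 with loess on processed signals, 17 on spike-in probes, 4 centred on MIRNA probes, 3 without centring and 4 in the authors' deposited table. With normexp the 1 run was 100007211 to 100007214 (-1.08) in place of 100000385 to 100000388 (-0.36). Runs at least 2-fold higher in total numbered 2, and were 15 on spike-in probes and 1 without scaling. Runs at least 2-fold lower numbered 3, and were 1 with normexp and 0 on spike-in probes. With totals summed from the authors' deposited table, which give IP less weight, 13 runs were higher and 1 was lower. The median IP share of 48.3% in control and 49.2% in OGD/R was 33.3% and 34.0% before dye normalization, 45.6% and 46.2% with normexp, 45.8% and 46.3% with at least 1 channel above background, and 46.6% and 47.0% with no filter. The likeness of neighbours in control share, 0.74, was 0.76 with normexp and 0.76 by Pearson correlation, and in OGD/R, 0.75, it was 0.76 by Pearson correlation. The SD of ratio differences was 0.40 on processed signals and 0.20 with normexp, and the Spearman correlation between them was 0.76.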

Other observations

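Some probes stood apart in signal from their run on both arrays. The total log2 signal of 100004159 was 7.58 above the median of its measured run mates in control and 7.74 above it in OGD/R, and its own total differed by 0.01 between the groups. For 100007603 the gaps were 6.24 and 6.42, with a difference of 0.12, and for 100006764 they were 6.19 and 6.21, with -0.16. A further pair of adjacent runs, chosen after their values were seen, had higher total signal in OGD/R: 100004037 to 100004040, with 3 measured probes, by 1.61-fold, and 100004042 to 100004044 by 1.62-fold at the median. The run of 6 probes, 100003143 to 100003148, had a median share of 57.8% in control and 66.0% in OGD/R over its 4 measured members, whose ratio differences lay between 0.24 and 0.65. Of the first 4 runs of 4 probes in number order, 100000035 to 100000038 was measured at all 4 probes, with a median share of 34.8% in control and 38.5% in OGD/R, and the runs starting at 100000015, 100000050 and 100000055 had 0 measured probes.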
